A study of Mus musculus with 5 samples.

Results

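Autotaxin, the receptors of its product lysophosphatidic acid (LPA) and the lipid phosphate phosphatases that degrade LPA were followed across 5 microarrays of mouse embryonic fibroblasts. The 9 member genes were Enpp2, Lpar1, Lpar2, Lpar3, Lpar4, Lpar6, Ppap2a, Ppap2b and Ppap2c, taken by their symbol in the array annotation. Each had 1 probe set, so 9 of 28350 main probe sets and 9 of 21630 tested genes are described. The Ppap2 symbols are older names: Ppap2a is now Plpp1, Ppap2b is Plpp3 and Ppap2c is Plpp2. The family was selected on the log2 signals of Enpp2, whose difference between the groups was already known, so the members' values are given as a description and without a test.

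The fibroblasts came from wild-type (MDR2+/+) and MDR2-/- embryos of the same litters, and were grown under 3T3 passaging, a schedule of regular replating that selects for cells able to divide without limit. RNA was taken at passage 40. Arrays 1, 2 and 3 carry the label MDR2-/- and arrays 2 and 3 the label MDR2+/+, and the study's title places the comparison in cell transformation and oxidative stress. They are called knockout 1 to 3 and wild type 2 and 3 here, after their labels. The disrupted gene, Mdr2, is now called Abcb4 and encodes a transporter that moves phosphatidylcholine across the membrane. Nothing in the labels says how many embryos or separate cultures stand behind the arrays, which disruption of the gene was used or whether a culture descended from 1 clone. The p-values thus rest on how far these 5 samples vary, and that variation may be technical.

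LPA is a small phospholipid that acts as an extracellular signal. Autotaxin, a secreted lysophospholipase D encoded by Enpp2, makes it by cleaving choline from lysophosphatidylcholine, a breakdown product of phosphatidylcholine. LPA then acts on G protein-coupled receptors of separate families: Lpar1, Lpar2 and Lpar3 belong to the EDG family, which also holds sphingosine 1-phosphate receptors, and Lpar4 and Lpar6 resemble the P2Y purinergic receptors. The signal is ended at the cell surface by lipid phosphate phosphatases, integral membrane enzymes that remove the phosphate group. In fibroblasts LPA is known for driving contraction, migration and growth.

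The promoter windows of the members that lay above background on every array are shown, as the sequences next to the starts of the transcripts that were measured clearly. Of the 9 members 7 had entries in the RefSeq promoter table (assembly GRCm38.p6), in windows of 300 bases that run from 250 bases before a transcript start to 50 after it. Enpp2 and Plpp1 are named only. Capitals mark motifs matched on either strand. The searched motifs were TATAAA for the TATA box and CCAAT for the CCAAT box. Others were GGGCGG for the GC box, TGANTCA for the AP-1 site and GGAATG for the TEAD site. In Lpar4 a CCAAT box and the GC box share bases.
Lpar1, most upstream of 3 listed starts, chr4:58553442-58553741, minus strand: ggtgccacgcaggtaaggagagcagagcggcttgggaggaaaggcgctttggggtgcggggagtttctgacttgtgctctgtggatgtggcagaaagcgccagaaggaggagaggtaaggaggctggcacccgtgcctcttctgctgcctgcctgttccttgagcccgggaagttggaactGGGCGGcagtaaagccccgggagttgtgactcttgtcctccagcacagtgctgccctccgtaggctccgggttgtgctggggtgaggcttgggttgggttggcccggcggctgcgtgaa
Lpar4, chrX:106920375-106920674, plus strand: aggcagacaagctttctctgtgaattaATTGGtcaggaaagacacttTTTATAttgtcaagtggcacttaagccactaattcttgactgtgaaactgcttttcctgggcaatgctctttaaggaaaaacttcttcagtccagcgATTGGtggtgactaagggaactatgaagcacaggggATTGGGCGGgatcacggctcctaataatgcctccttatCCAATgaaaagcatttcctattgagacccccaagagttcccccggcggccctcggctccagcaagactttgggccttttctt
Plpp3 (Ppap2b), chr4:105157097-105157396, plus strand: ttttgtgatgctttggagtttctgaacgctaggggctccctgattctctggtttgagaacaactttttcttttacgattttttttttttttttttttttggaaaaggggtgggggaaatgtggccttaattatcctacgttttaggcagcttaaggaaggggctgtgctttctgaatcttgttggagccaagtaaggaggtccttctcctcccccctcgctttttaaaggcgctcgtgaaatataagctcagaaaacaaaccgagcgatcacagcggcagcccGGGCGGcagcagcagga
Plpp2 (Ppap2c), chr10:79533738-79534037, minus strand: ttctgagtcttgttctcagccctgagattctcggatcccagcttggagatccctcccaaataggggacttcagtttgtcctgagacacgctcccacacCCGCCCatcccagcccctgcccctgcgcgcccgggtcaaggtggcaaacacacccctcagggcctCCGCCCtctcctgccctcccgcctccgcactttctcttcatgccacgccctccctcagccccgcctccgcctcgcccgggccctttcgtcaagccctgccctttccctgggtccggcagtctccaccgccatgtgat

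The Lpar4 window was the only one of these 4 with a match to the TATA box letters, which 13.6% of all 32851 windows hold. That match reads on the opposite strand and lies far upstream of the transcript start. The Lpar4 window also carried 4 CCAAT boxes, a motif found in 37.4% of windows. Each of the 4 printed windows held a GC box, as did 35.7% of all windows. GC content was 63.0% at Lpar1 and 65.3% at Plpp2 but 46.7% at Lpar4 and 46.0% at Plpp3, against a median of 52.7% over all windows. None of the 4 had an AP-1 or TEAD match (7.81% and 14.7% of all windows). The second Lpar1 window, 198 bases downstream of the first, had 37 CG dinucleotides and the third 3, against a median of 7. These matches are letters in a window, and nothing on the arrays measured the binding of a factor.

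Values are log2 signals as deposited. The median over all tested genes lay between 4.27 and 4.33 on each array. Background was read from 45 antigenomic probe sets, designed to match nothing in the mouse genome, and their 95th percentile was between 5.71 and 6.08. Abcb4 itself was not lower under the knockout label, at 6.002, 4.63 and 5.74 against 4.05 and 3.95, and it exceeded background on 1 array only. Each direction given here is thus that of arrays labelled knockout. Xist, transcribed from the inactive X chromosome, was at 7.32 to 7.68 on the arrays labelled knockout and at 2.98 and 3.17 on the others, and the Y-linked Ddx3y at 2.26 to 2.61 against 6.65 and 6.96, so genotype label and sex-linked expression cannot be told apart. Of 11 fibroblast markers 9 exceeded background on all arrays, Lum on none, and Thy1, a fibroblast surface protein, lay below it on both wild-type arrays (5.60 and 5.22, against 9.70 to 10.55).

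**Figure D1:**
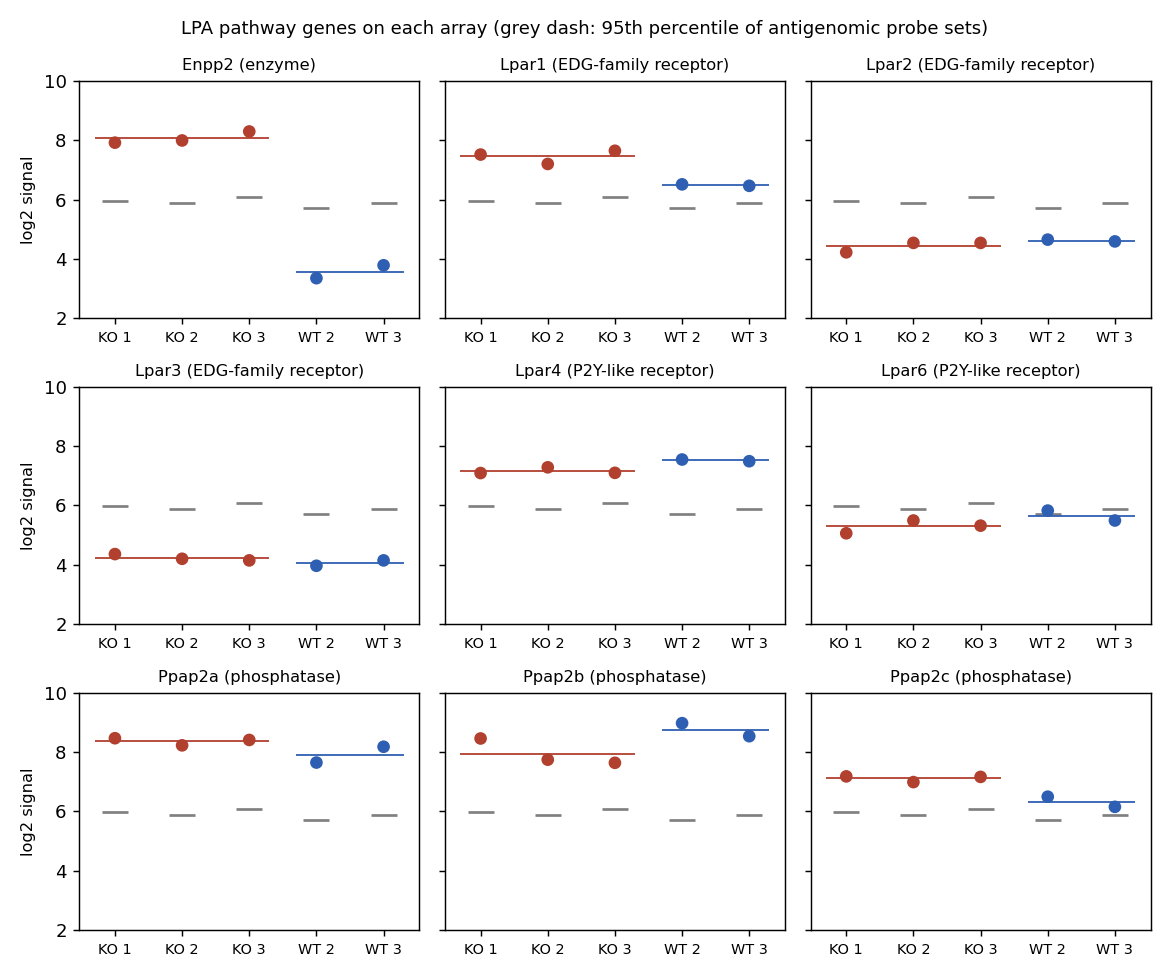
Log2 signal (vertical axis) of the 9 genes on each array (horizontal axis; KO, labelled knockout, red; WT, labelled wild type, blue), with group means as lines and the 95th percentile of the antigenomic probe sets as grey dashes. Enpp2 lies above background on the 3 KO arrays and below it on both WT arrays, while Lpar2 and Lpar3 lie below it throughout.

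Autotaxin showed the widest separation of the groups among the members. The Enpp2 probe set (10428619, chromosome 15, 54670220 to 54751664, minus strand, NCBIM37) read 7.92, 7.99 and 8.30 on knockout 1, 2 and 3 and 3.34 and 3.78 on wild type 2 and 3. All 3 arrays labelled knockout stood above background and both labelled wild type stood below it, with a gap of 4.14 between the nearest arrays of the groups. Between the means of 8.07 ± 0.20 (SD, n = 3) and 3.56 ± 0.31 (SD, n = 2) lay a log2 difference of 4.51 ± 0.20 (moderated SE).

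Because the wild-type signal could not be distinguished from background, the measured difference has only a lower limit in fold terms: with the wild-type level set at the background percentile of each array, Enpp2 was at least 4.85-fold higher under the knockout label. Enpp2 was also the 1 member of 9 with an adjusted p under 0.05 in limma, a call made for 0.301% of all genes. That call put the family forward and nothing is read from it. It was absent when any single array labelled knockout, or wild type 2, was left out, although the difference itself stayed between 4.29 and 4.73 over all 5 omissions.

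Among the EDG-family receptors of LPA, Lpar1 was the one with signal above background. Lpar1, the receptor best known for LPA responses of fibroblasts, is measured on chromosome 4 at 58447856 to 58566391 (probe set 10513256). It read 7.52, 7.20 and 7.65 on the arrays labelled knockout and 6.51 and 6.46 on wild type. The wild-type arrays lay within 0.05 of each other, the others spanned 0.45, and the groups did not overlap. Its means of 7.45 ± 0.23 (SD, n = 3) and 6.49 ± 0.04 (SD, n = 2) differ by 0.97 ± 0.16 (SE) on the log2 scale, or 1.96-fold.

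Lpar2 and Lpar3 stayed at background on all 5 arrays, and no fold is given for either. Lpar2 (chromosome 8, 72346328 to 72355001) read 4.22, 4.54 and 4.54 under the knockout label and 4.65 and 4.59 under the wild-type label, and the groups were 0.05 apart. Lpar3 (chromosome 3, 145883949 to 145949150) read 4.36, 4.20 and 4.15 against 3.96 and 4.15. Knockout 3 and wild type 3 held an identical Lpar3 value, so these groups overlapped. Identical values recur throughout the deposited table: of the 21630 genes 7670 had 5 distinct values.

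Of the P2Y-like receptors, Lpar4 was above background throughout. This LPA receptor, encoded on the X chromosome (104115974 to 104127773), was at 7.09, 7.29 and 7.10 on the arrays labelled knockout and at 7.55 and 7.49 on wild type. Its groups were separated by 0.21. The difference was -0.36 ± 0.08 (SE), 1.28-fold lower, with means of 7.16 ± 0.11 (SD, n = 3) and 7.52 ± 0.04 (SD, n = 2). Lpar4 shares its chromosome with Xist, and the part of the sex-linked difference in its level was not tested.

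Lpar6, a receptor known from human hair growth, read 5.06, 5.49 and 5.32 against 5.83 and 5.49 (chromosome 14, 73637702 to 73640149). Only wild type 2 exceeded background, and knockout 2 and wild type 3 held the same value, so the groups overlapped. Its log2 difference was -0.37 ± 0.19 (SE), and -0.20 without wild type 2. Lpar6 lies within the gene Rb1 in the RefSeq annotation.

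**Figure D2:**
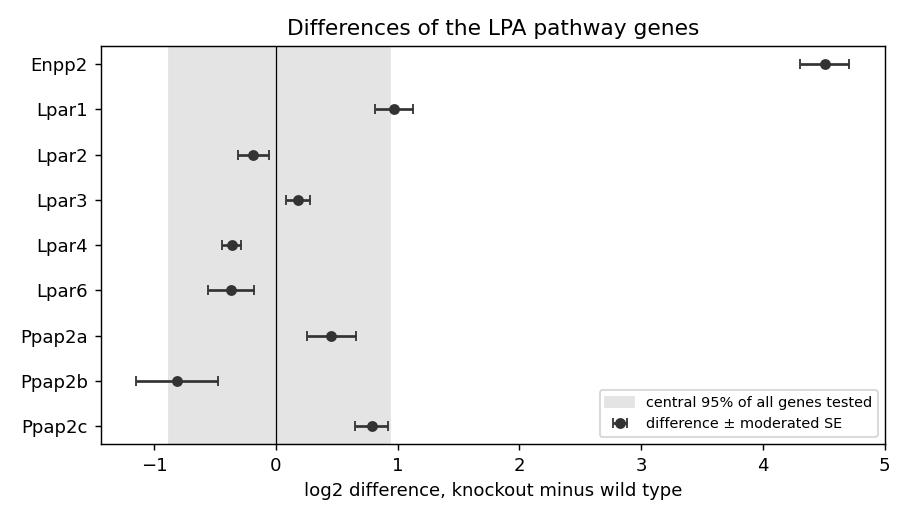
Log2 difference (horizontal axis, labelled knockout minus wild type) of each member with its moderated standard error, against the central 95% of all 21630 genes (grey, from -0.88 to 0.94). Enpp2 at 4.51 and, narrowly, Lpar1 at 0.97 lie beyond the band and the other 7 members within it. Of the genes that set the band, 13909 exceeded background on no array.

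The 3 lipid phosphate phosphatases were all above background on every array, and their differences did not share a sign. Ppap2c, which encodes LPP2, was higher under the knockout label, at 7.18, 6.99 and 7.16 against 6.50 and 6.15 (chromosome 10, 78989174 to 78996532). The groups were 0.49 apart. The difference of 0.79 ± 0.14 (SE), or 1.73-fold, lay between means of 7.11 ± 0.11 (SD, n = 3) and 6.32 ± 0.24 (SD, n = 2).

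Ppap2b, which encodes LPP3, the form needed for blood vessel development in the mouse embryo, was lower. It read 8.46, 7.75 and 7.64 on the arrays labelled knockout and 8.98 and 8.54 on wild type (chromosome 4, 104829952 to 104905372). Knockout 1 stood well above the other two and came within 0.08 of wild type 3. The means were 7.95 ± 0.45 (SD, n = 3) and 8.76 ± 0.31 (SD, n = 2), with a difference of -0.81 ± 0.34 (SE), 1.75-fold lower, about as large as the range of 0.82 within the arrays labelled knockout.

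Set against each other within an array, which removes any scaling of the whole array, the log2 signal of Ppap2c minus that of Ppap2b was -1.28, -0.76 and -0.48 under the knockout label. It was -2.48 and -2.38 on the wild-type arrays. The means were -0.84 ± 0.41 (SD, n = 3) and -2.43 ± 0.07 (SD, n = 2). The pair was taken after its members had been seen to differ in opposite directions without overlap, which fixes the separation of the groups in this quantity. The quantity shows unequal change of the pair, not which gene changed.

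Ppap2a, which encodes LPP1, read 8.47, 8.23 and 8.41 against 7.65 and 8.18 (chromosome 13, 113591000 to 113658089). Its groups were 0.05 apart, and the wild-type arrays differed from each other by 0.53, more than the difference of 0.46 ± 0.20 (SE) between the groups. Wild type 2 carried most of it: without that array the difference was 0.19, and without wild type 3 it was 0.72.

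Over the 9 members 5 had a higher and 4 a lower mean under the knockout label, and the median difference was 0.18 beside 0.00 for all genes tested. The groups did not overlap in 7 members, 4 higher and 3 lower. Over all genes 25.0% had groups without overlap, and among the 5273 genes above background on every array the share was 46.3%. Since the family was chosen with this contrast known, the count is a description. Within groups, the members' median range over the arrays labelled knockout was 0.32, against 0.19 for all genes and 0.26 for the genes above background on every array. Over the wild-type pair it was 0.34, against 0.08 and 0.14.

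The genes around the members in the same pathway were described from 7 lists holding 94 genes, all of them measured. Of these 1 rose and 1 fell past an adjusted p of 0.05, and 92 did not pass, where 0.153% of all genes rose and 0.148% fell. At an unadjusted p under 0.05 there were 6 higher and 15 lower, beside 5.36% and 8.29% of all genes. The median log2 difference was -0.01 over the 94 genes.

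Both calls fell among the 21 G proteins and effectors through which LPA receptors act. Gnai1, an inhibitory G protein alpha subunit used by LPA receptors, fell from 7.71 and 7.56 on wild type to 2.74, 2.44 and 3.00 under the knockout label (limma adjusted p = 0.0267). All 3 of those arrays lay at background, which makes Gnai1 at least 3.16-fold lower there. Its relatives did not pass: Gnai2 read 10.13 on all 3 arrays labelled knockout and 10.12 and 10.18 on wild type (adjusted p = 0.723), and Gnai3 differed by 0.29 ± 0.13 (SE; adjusted p = 0.518).

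The gene that rose was Plce1, a phospholipase C that small GTPases of the Ras family activate. Its signal was 5.55, 5.74 and 5.64 against 3.82 and 3.90 (adjusted p = 0.0267), yet it stayed below the background percentile on every array, so no fold is given. Plcb4, a phospholipase C driven by Gq proteins, read 4.65, 4.80 and 4.74 against 5.97 and 5.79 and missed the threshold (adjusted p = 0.0573), with wild type 2 alone above background. Tiam1, an exchange factor for Rac, read 4.82, 4.60 and 5.28 against 5.98 and 6.31 (adjusted p = 0.206). The first 3 of these lay below background, which makes Tiam1 at least 1.13-fold lower. Neither the Gnai1 nor the Plce1 call held when any single array of the 5 was left out, with adjusted p-values of 0.0573 to 0.151 for Gnai1 and 0.0544 to 0.181 for Plce1. The list's median difference was -0.06.

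Neither autotaxin's relatives nor the other enzymes of LPA production passed the test: 0 of 16 did in limma, with 3 lower and 0 higher at an unadjusted p under 0.05. Pla2g4a, the cytosolic phospholipase A2 that releases arachidonic acid and lysophospholipids, read 7.43, 6.94 and 7.49 against 8.32 and 8.41 (difference -1.08 ± 0.21, SE; adjusted p = 0.184). Enpp1, a pyrophosphate-producing relative of autotaxin, differed by 0.94 ± 0.42 (SE; adjusted p = 0.511), and its wild-type arrays were 5.99 and 7.07. The Enpp1 difference was 0.40 without wild type 2 and 1.47 without wild type 3. Enpp4 read 4.65, 4.99 and 4.77 against 5.96 and 5.62 (adjusted p = 0.157) and exceeded background on wild type 2 only, so no fold is given.

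Genes of LPA removal, which include acyltransferases that convert LPA to phosphatidic acid and further phosphatase-like proteins, also had 0 of 15 past limma's test, with 1 higher and 1 lower at an unadjusted p under 0.05. Plpp5, a phosphatase related to the members, read 7.69, 7.37 and 7.54 against 8.12 and 8.07 (difference -0.56 ± 0.11, SE; adjusted p = 0.191). Plppr2 differed by 0.30 and Agpat2 by -0.22 (adjusted p = 0.691 and 0.554). Single arrays moved both: Plppr2 was at 0.10 without knockout 1 and 0.58 without knockout 2, and Agpat2 at -0.33 without knockout 1 and -0.12 without knockout 3. Of 5 further receptors, Lpar5 among them, 0 exceeded background on any array and 0 passed limma's test, adjusted or unadjusted. Lpar5 read 4.36 to 4.54 under the knockout label and 4.48 and 4.47 on wild type.

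The sphingosine 1-phosphate axis, whose lipid is also a substrate of the phosphatases, had 0 of 14 genes past limma's test, adjusted or at an unadjusted p under 0.05. Sphk1, a kinase that makes this lipid, read 6.55, 6.08 and 6.06 against 5.37 and 5.83 (adjusted p = 0.425). Its difference of 0.63 was 0.40 without wild type 2. Only knockout 1 and knockout 2 exceeded background for Sphk1, so this size is not firm. The receptor S1pr1 was at 8.07, 7.55 and 7.59 against 7.22 and 8.99, so the wild-type arrays lay on both sides of the others. Its difference of -0.37 (adjusted p = 0.779) turned to 0.52 without wild type 3. Asah1, an acid ceramidase, differed by -0.22 (adjusted p = 0.554), and by -0.12 without knockout 3 or without wild type 2.

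**Figure D3:**
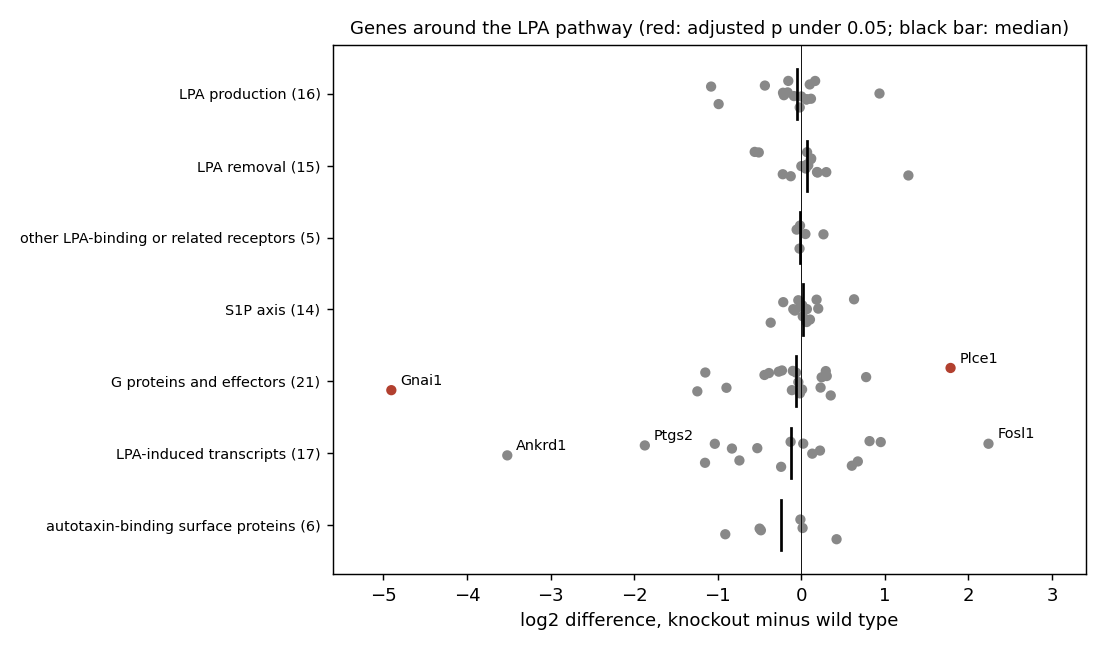
Log2 difference (horizontal axis, labelled knockout minus wild type) of each of the 94 genes around the pathway, by list with its number of genes; red points passed an adjusted p of 0.05 and black bars are list medians. Gnai1 at -4.91 and Plce1 at 1.79 are the red points, and the medians lie between -0.25 and 0.07.

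Transcripts that LPA is known to induce did not move together as a list. Of 17 none passed limma's test, with 2 higher and 2 lower at an unadjusted p under 0.05, and 8 lay higher and 9 lower. Ankrd1, a target of the YAP coactivator, read 4.89, 4.46 and 5.27 against 8.23 and 8.55 (limma adjusted p = 0.0675). All 3 arrays labelled knockout lay below background for Ankrd1, so its level there was at least 5.35-fold lower. Ccn1 and Ccn2, also targets of YAP, differed by 0.13 ± 0.32 and -0.13 ± 0.28 (SE; limma adjusted p = 0.863 and 0.834). These standard errors exceed the differences, so a change of moderate size in either gene would not be seen. Acta2, Tagln and Vcl, genes of the contractile cytoskeleton, differed by -1.03, -1.15 and -0.53 (limma adjusted p = 0.427, 0.286 and 0.399). Their groups did not overlap, as in 8 of the list's 17 genes and 46.3% of all genes above background on every array. Cnn1, a smooth muscle marker outside the list, lay the other way at 0.40. Plaur, from the same list, read 6.47, 6.33 and 6.44 against 5.79 and 5.84 (difference 0.60 ± 0.05, SE; limma adjusted p = 0.0677). Fosl1, an AP-1 subunit, differed by 2.24 ± 0.64 (SE; adjusted p = 0.287), and the prostaglandin synthase gene Ptgs2 by -1.87 ± 0.70 (SE; adjusted p = 0.406). For both of these knockout 2 was the lowest of the 3 arrays under its label, at 5.67 for Fosl1 and 6.95 for Ptgs2. Fosl1 lay below background on that array and on both wild-type arrays (4.67 and 4.27), so the size of its difference is not firm.

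Surface proteins to which autotaxin can bind had 0 of 6 past limma's test. At an unadjusted p under 0.05 there were 3 lower, beside 8.29% of all genes. Of these 3, Itgb3 and Itga6 lay below background on every array, so only Itgb1 was measured clearly. Itgb1, the integrin beta 1 chain, read 9.74, 9.74 and 9.63 against 10.28 and 10.12 (difference -0.50 ± 0.07, SE; adjusted p = 0.123). Sdc4, a heparan sulfate proteoglycan, differed by 0.42 ± 0.17 (SE; adjusted p = 0.450).

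Markers of cell types known to make much autotaxin were at background. All 5 oligodendrocyte markers lay below it on every array, and so did 6 of 7 adipocyte markers, with Adipoq at 2.37 on each of the 5 arrays. The exception was Fabp4, a fatty acid binding protein, at 6.90, 5.49 and 5.56 under the knockout label against 3.83 and 4.18 (adjusted p = 0.279), above background on knockout 1 only. Lpl, a lipoprotein lipase, lay the other way below background, at 4.22, 3.77 and 3.53 against 4.92 and 5.19 (adjusted p = 0.205). The adipocyte markers averaged 3.60 to 3.93 on the arrays labelled knockout and 3.58 and 3.64 on wild type. Macrophage, epithelial and endothelial markers were below background except Cd68 on wild type 2 (6.25). In bulk RNA, fewer cells of a type and less RNA per cell cannot be told apart.

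**Figure D4:**
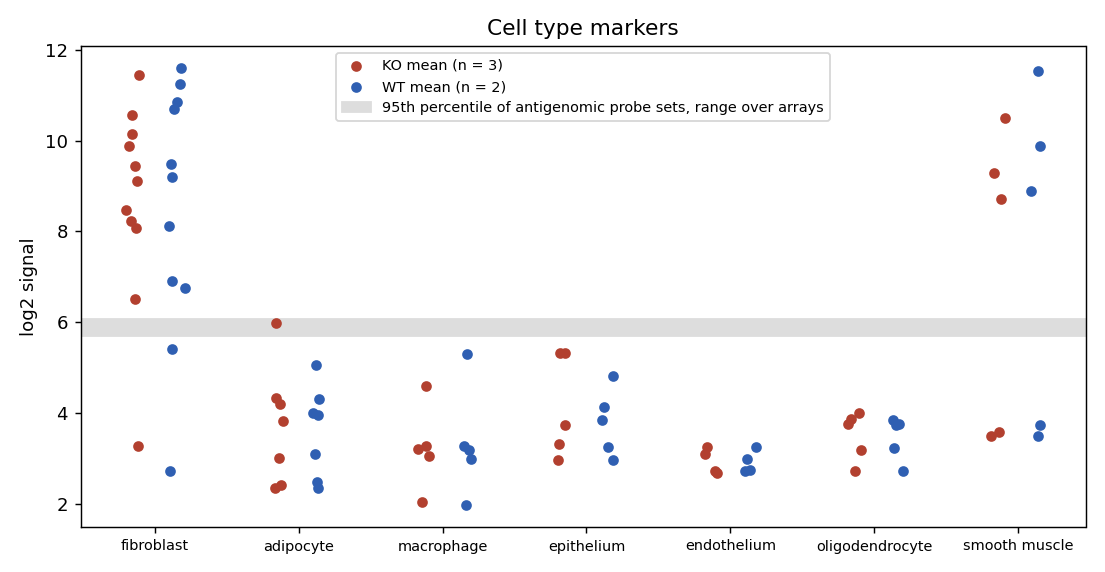
Group means of log2 signal (vertical axis) for the markers of 7 cell types (horizontal axis; red, labelled knockout, n = 3; blue, wild type, n = 2), with the range of the antigenomic 95th percentile over arrays in grey. Both group means of 9 fibroblast markers and of 3 of 5 smooth muscle markers lie above the band, those of Lum and the wild-type mean of Thy1 below it, and all group means of adipocyte and oligodendrocyte markers lie below it except that of Fabp4 under the knockout label, which falls inside the band.

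The profiles most like that of Enpp2 were sought as the smallest Euclidean distance between log2 values over the 5 arrays, after each gene's mean was subtracted, among 18108 genes. The nearest was Xist (distance 0.43), followed by Dkk3 (0.52), Hoxc10 (0.78), Tbx4 (0.80) and Spp1 (0.88), where Enpp2's own distance from a flat profile is 4.96. Dkk3, a secreted protein of the Dickkopf family, read 7.26, 7.10 and 7.32 against 2.94 and 3.35, and Tbx4, a limb transcription factor, 8.16, 7.51 and 8.29 against 3.88 and 3.53, with the wild-type values of both below background. Hoxc10 lies on chromosome 15, as Enpp2 does, and the others lie elsewhere.

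Lpar1 had closer neighbours in profile, among them Rsbn1 (distance 0.09), Asph (0.15) and Adamtsl4 (0.15), against 1.11 for a flat profile. Asph, an aspartyl beta-hydroxylase of the endoplasmic reticulum, read 6.36, 6.09 and 6.57 against 5.55 and 5.36. Asph lies on chromosome 4 with Lpar1.

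**Figure D5:**
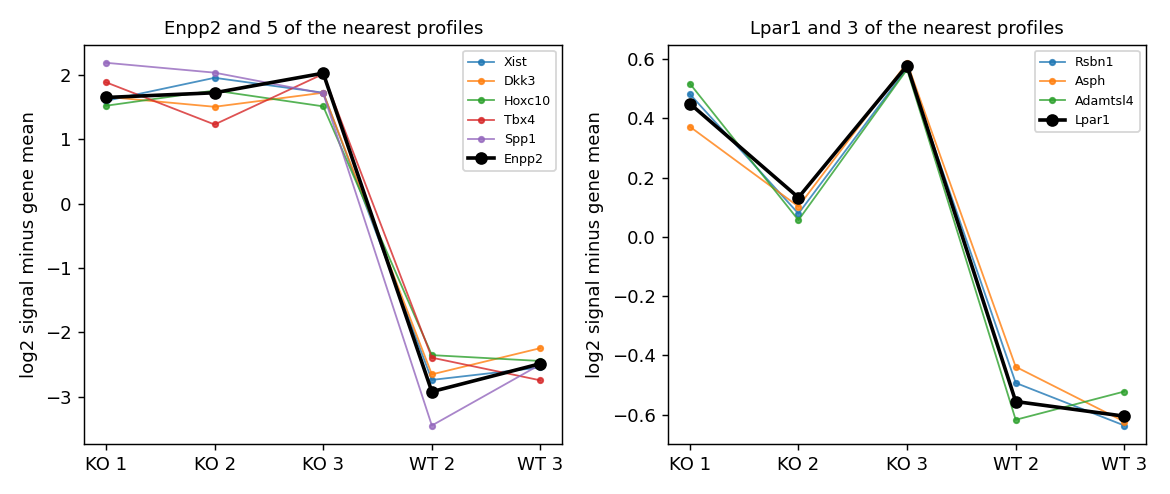
Log2 signal minus each gene's mean (vertical axis) on each array (horizontal axis) for Enpp2 with its 5 nearest genes and Lpar1 with 3 of its nearest (black, Enpp2 and Lpar1). The genes were chosen for their likeness to Enpp2 and Lpar1, so the shared shape follows from the choice.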

How the data were processed

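Per the labels' protocols, cDNA amplified from total RNA was biotin-labelled and hybridised. Affymetrix Expression Console is the tool that the submitters' processing notes name. The deposited log2 signals were used as they stand. The summary and normalization method is not given in the sources used here. Of 35556 probe sets, 7115 controls were left out. Symbols were updated through RefSeq tables (GRCm38.p6, names and gene order). The brightest probe set stood for each of 21630 genes. Coordinates are the array annotation's, taken as NCBIM37, since 2759 of 2953 rows that state such a position overlap it.

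The comparison used lmFit and eBayes of limma 3.58.1 (R 4.3.3) without a block, leaving 3 residual degrees of freedom. P-values were adjusted over all genes by Benjamini-Hochberg, at a threshold of 0.05. The fit was also run on simulated data with independent normal noise, and no result here rests on that run. The number of arrays limits the precision. Member genes and lists were chosen with earlier results of these data known. Named genes are the members, list genes past the threshold, up to 3 per list with the largest difference in a group above background, the 5 nearest profiles to Enpp2 and to Lpar1, and label checks. Some genes that this rule takes are not reported here. Any other gene (Gnai2, Gnai3, Lpar5, Ccn1, Ccn2, Acta2, Tagln, Vcl, Plaur, cell type markers, genomic neighbours) was named after its values were seen. Alternatives were other normalizations, filters, probe set rules, prior variances, a replicate block and omission of each array.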

Additional observations from a re-analysis of the deposited data

How the results depend on the processing

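Filters, probe set rules and prior variances cannot alter a member's difference. Omitting an array cannot reverse it for the 7 members whose groups did not overlap. Within those limits, the differences of all 9 member genes kept their sign under every alternative run. Leaving out 1 array moved 4 of them by over 1.5 times: Lpar2 to -0.08 without knockout 1, Lpar3 to between 0.09 and 0.27, Lpar6 to -0.20 and Ppap2a to 0.19 without wild type 2 (0.72 without wild type 3 for Ppap2a). The count of genes past the threshold depended on the setting. It was 65 as reported, 366 after a second quantile normalization, 255 with array medians subtracted, 270 without dim genes and 359 without genes of equal values on all arrays. The counts of LPA-related genes called were 5, 6, 6 and 6 under these 4 settings, against 2. Those added were Arhgef12, Plcb4 and Ankrd1 in all 4 and Plaur in 3. With limma and a replicate block both counts were 0 (2319 genes at an unadjusted p under 0.05). That fit left 1 residual degree of freedom, and its member differences equalled those without knockout 1. The labels do not say that a number marks a shared litter or day. Deviations of same-numbered arrays correlated at -0.17 for number 2 and -0.14 for number 3. With 2 wild-type arrays the deviations of that group mirror each other, so these correlations cannot decide whether the numbers mark pairs. The block was kept as an alternative only. Leaving out single arrays gave 0 to 335 genes over the whole table and 0 to 1 LPA-related genes. The counts of 189 and 335 came without wild type 2 and without wild type 3, where the lone wild-type array is assumed to vary like the arrays labelled knockout. The whole-table count was 0 in limma without knockout 1 and without knockout 3, beside 2297 and 2196 genes at an unadjusted p under 0.05. The calls on Gnai1 and Plce1 ended without any single array. Over all alternatives their adjusted p ran from 0.00414 to 0.356 and from 0.00414 to 0.351. The number of members whose groups did not overlap was 7 to 9 over these omissions. Leaving out an array cannot make separated groups overlap, so this count could only stay at 7 or rise. The difference of S1pr1 was -1.25 without wild type 2 and reversed to 0.52 without wild type 3. The series matrix table held the same values. Signal over background limits every gene with a group at background. Among them are Lpar2, Lpar3, Lpar6, Plce1, Plcb4, Enpp4, Rb1, Sphk1 and Fosl1, and the dim side of Enpp2, Gnai1, Ankrd1, Tiam1 and Ccn3. The causes of these shifts were not tested.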

Other observations

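The genes next to the members on their chromosomes were examined after the values of the members had been seen, taking the 2 nearest measured protein-coding genes on each side. None of these neighbours of any member passed the adjusted threshold in limma. Those described below were picked after their values were seen. The differences of the remaining neighbours ran from -0.61 (Gmip, beside Lpar2) to 0.44 (Svep1, beside Lpar1). Ccn3, a secreted matricellular protein, is the nearest such gene on one side of Enpp2. It read 9.86, 10.39 and 10.36 under the knockout label against 5.30 and 4.23, at least 21.3-fold higher given the background on wild type, and missed the threshold (limma adjusted p = 0.0598). On the other side Taf2, a subunit of the general transcription factor TFIID, read 6.26, 6.69 and 6.41 against 6.69 and 6.73 (adjusted p = 0.554). The next genes outwards, Mal2 and Dscc1, differed by 0.03 and 0.41 (adjusted p = 0.691 and 0.639) and lay below background on every array. Rb1, the retinoblastoma tumour suppressor within which Lpar6 lies, read 4.43, 4.31 and 4.69 against 6.21 and 5.59 (adjusted p = 0.169), above background on wild type 2 only, a difference of -1.42 beside the -0.37 of Lpar6. Next to Lpar4 on the X chromosome, Rtl3 read 4.88, 6.03 and 5.22 against 2.97 and 2.55 (adjusted p = 0.154), opposite in sign to Lpar4. P2ry10b read 3.78, 4.47 and 4.03 against 5.49 and 6.16 (adjusted p = 0.182), of the same sign. Rtl3 exceeded background on knockout 2 only and P2ry10b on wild type 3 only, so neither size is firm. Beside Plpp1, Slc38a9, Mtrex and Dhx29 differed by -1.19, -0.54 and -0.83 (adjusted p = 0.139, 0.270 and 0.193), while Plpp1 itself was on the higher side. Slc38a9 and Dhx29 exceeded background on wild type 2 only.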
